A study of Mus musculus with 29 samples.

Results

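The genes described here were 9 genes of the choroid plexus epithelium (Ttr, Folr1, Clic6, Kl, Kcnj13, Slc4a5, Aqp1, Otx2 and Enpp2) among the 36172 gene rows of the table. They were chosen by their measured levels, because choroid plexus genes were higher in the positive than in the negative fraction of Aldh1l1-NuTRAP mice, so their values in that contrast are given as a description with no test. All 9 had values in all 29 TRAP-RNAseq libraries. TRAP pulls ribosomes that carry an EGFP-tagged L10a protein out of a brain homogenate, together with the mRNA bound to them.

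Aldh1l1-NuTRAP mice were Aldh1l1-Cre/Ert2+; NuTRAP+, and Cx3cr1-NuTRAP mice were Cx3cr1-Cre/Ert2+; NuTRAP+. Both lines received tamoxifen at about 3 months of age (100 mg/kg on 5 consecutive days), which lets Cre turn on the ribosome tag. In the paper, Aldh1l1-NuTRAP brains for flow cytometry and imaging were taken a week after tamoxifen. Collection from Cx3cr1-NuTRAP mice was delayed to several weeks, so line and interval may not be separable here. The tag therefore depends on the cells in which the Aldh1l1 driver, used for astrocytes, or the Cx3cr1 driver, used for microglia, was active. The positive fraction was the RNA on the beads, the negative fraction the RNA left unbound, and the input the cleared homogenate before pulldown. The libraries were positive and negative fractions of 3 Aldh1l1-NuTRAP mice (290, 293 and 294), positive fraction, negative fraction and input of 6 Cx3cr1-NuTRAP mice (155, 192, 194, 209, 210 and 277), and whole tissue of 5 of the latter (all but 155). For the Aldh1l1-NuTRAP line no input or whole tissue was analysed here. The samples of a group were separate mice, and the fractions of a mouse came from the same homogenate. None of the 29 libraries came from a mouse without Cre or without the tag.

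The choroid plexus hangs in the brain ventricles. It is a sheet of cuboidal epithelial cells over leaky capillaries, and it secretes cerebrospinal fluid by moving ions and water from blood to ventricle. Its epithelium also exports transthyretin, folate and soluble klotho into the fluid, and its cells are neither astrocytes nor microglia, although they arise from the neuroepithelium as astrocytes do.

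Sequences of start regions from RefSeq (GRCm38.p6) were used to show what lies upstream of the members. In the set of start regions used here, 5 of the 9 had an entry (Kl, Kcnj13, Slc4a5, Aqp1 and Otx2, the last with 4 starts). The 250 bases before each start were searched on both strands for TAATCC, the core that OTX factors bind, for TAATTA, a core of MSX and LIM homeodomain factors, and for GTAAACA, a forkhead core. TAATCC was found in 1 of the 8 windows, against 6.25% of all 32851 windows of that length. TAATTA was found in 2 of the 8, against 4.84%, and GTAAACA in 0 of the 8, against 3.17%. All matches lay in windows of Otx2, whose 4 starts gave 4 windows that partly overlap each other or its exons. The windows of the other genes held no match, so the 8 windows do not stand for separate genes. TAATCC and TAATTA share their first letters but a match of one is not a match of the other. The windows shown are those of 2 channel genes and of the factor itself, and capitals mark a motif match.

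Kcnj13, chr1:87394730-87394979, minus strand, 45.2% GC, inside the gene Gigyf2 with no exon there: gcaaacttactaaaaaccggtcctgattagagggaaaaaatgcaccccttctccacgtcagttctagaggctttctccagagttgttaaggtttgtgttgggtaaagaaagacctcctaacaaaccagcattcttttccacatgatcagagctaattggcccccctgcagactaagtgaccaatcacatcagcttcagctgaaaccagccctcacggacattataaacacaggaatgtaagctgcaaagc
Aqp1, chr6:55336049-55336298, plus strand, outside annotated genes: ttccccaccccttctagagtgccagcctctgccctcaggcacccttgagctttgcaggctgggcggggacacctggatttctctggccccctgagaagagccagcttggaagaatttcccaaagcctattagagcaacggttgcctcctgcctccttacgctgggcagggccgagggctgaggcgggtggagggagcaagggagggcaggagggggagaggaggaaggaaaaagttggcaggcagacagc
Otx2, most upstream start, chr14:48667645-48667894, minus strand, TAATTA in capitals: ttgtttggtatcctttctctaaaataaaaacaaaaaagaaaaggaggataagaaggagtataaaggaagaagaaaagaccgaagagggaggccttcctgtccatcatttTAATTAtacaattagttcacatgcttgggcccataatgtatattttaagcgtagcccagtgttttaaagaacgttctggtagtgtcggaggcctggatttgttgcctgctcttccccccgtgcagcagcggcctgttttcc
Otx2, the only TAATCC match (here as GGATTA, its reverse complement), chr14:48665305-48665330, minus strand: tgtgcccctcGGATTAtctcgttagt

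The Kcnj13 and Aqp1 windows held none of the 3 motifs. A match is a stretch of letters and not a measured binding site.

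Levels are raw counts scaled to a library total of 1000000 (CPM), and log2 fold changes are from edgeR after TMM scaling. Total counts per library ranged from 4260949 (whole tissue of mouse 210) to 26857866. Aldh1l1 was higher in the Aldh1l1-NuTRAP positive than negative fraction, at 540.1 ± 40.4 against 71.4 ± 13.3 CPM (SD, n = 3). Cx3cr1 was higher in the Cx3cr1-NuTRAP positive fraction than in input, at 273.8 ± 84.9 against 27.3 ± 1.27 CPM (SD, n = 6). The TMM scaling factors, computed over all 29 libraries, were 0.731 to 0.779 in the Aldh1l1-NuTRAP positive fractions and 0.968 to 1.020 in the negative fractions. In the fit of these fractions alone, total counts instead of TMM moved the median log2 fold change of all 13319 tested genes by -0.346. The members' positive over negative log2 fold changes stand relative to that shift. With TMM 52.0% of the genes called between these fractions were higher, and with total counts 33.6%.

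**Figure D1:**
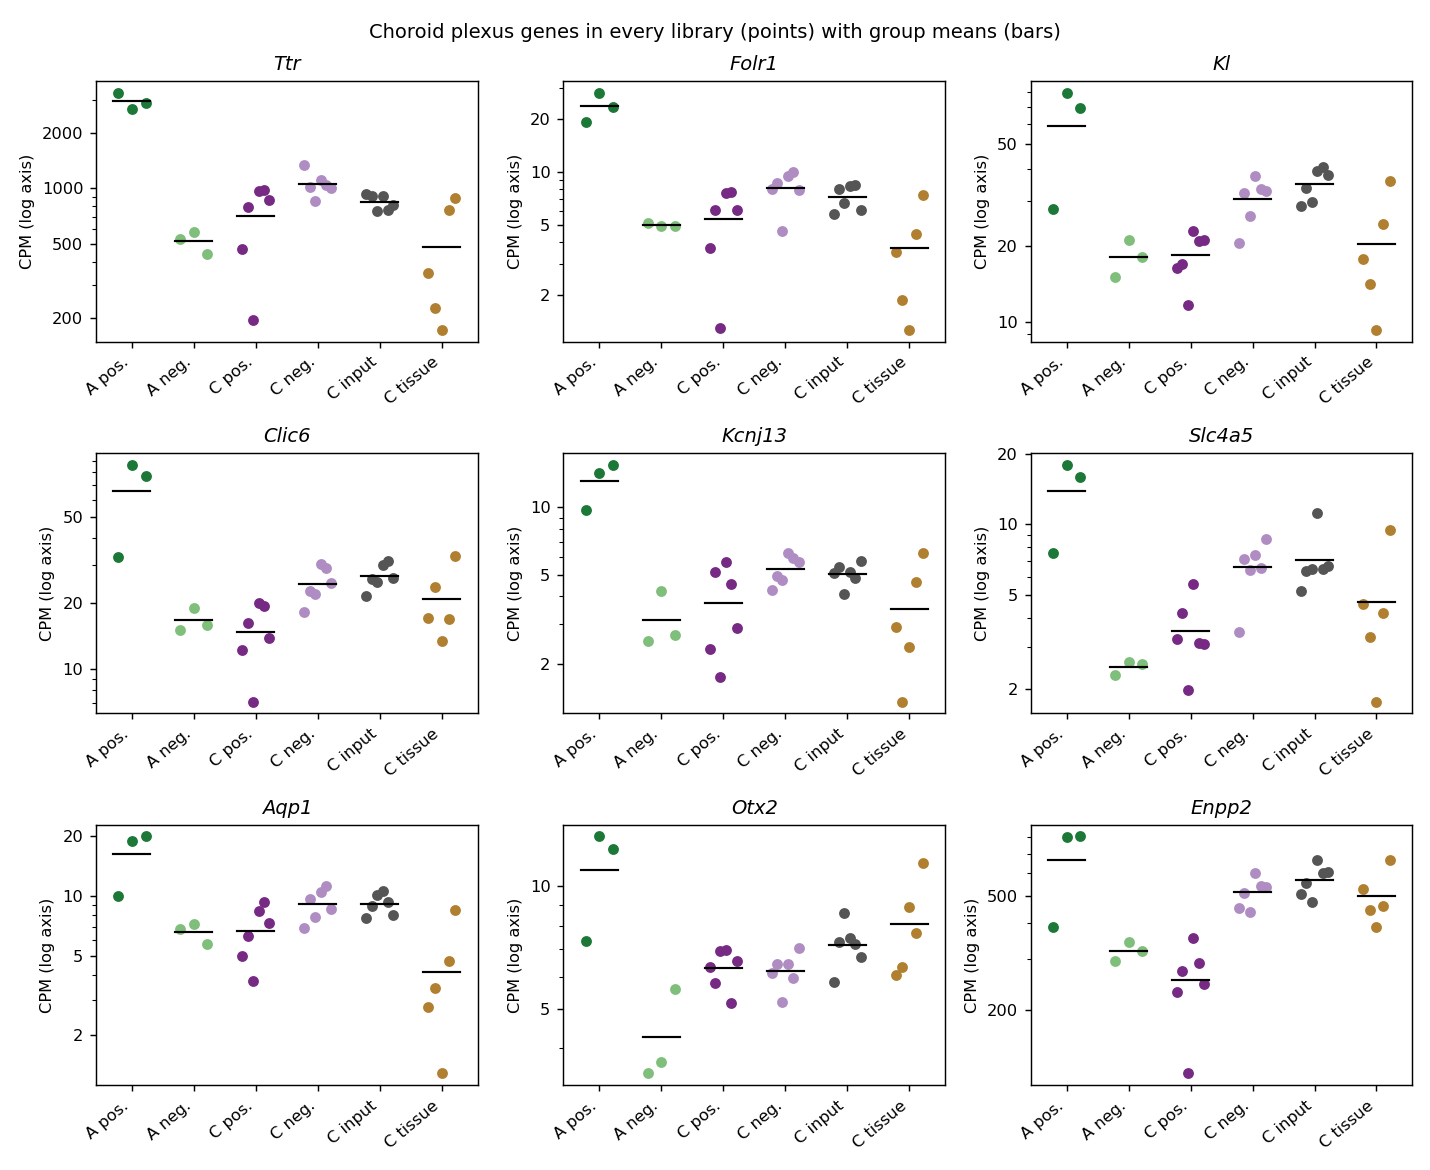
Level of each of the 9 genes in CPM (log axis) in every library, by group. A is Aldh1l1-NuTRAP, C is Cx3cr1-NuTRAP, pos. and neg. are the positive and negative fractions, points are mice and black bars are group means. The mean of the Aldh1l1-NuTRAP positive fraction is the highest for all 9 genes, and mouse 290 is the lowest of its 3 points for 8 of them.

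In the Aldh1l1-NuTRAP mice the positive fraction lay above the negative fraction in all 3 mice for all 9 genes, which is what they were picked for. Over all 13319 tested genes 21.3% had positive fractions that all exceeded all negative fractions, and 41.7% had positive fractions below all negative ones, while edgeR called 26.8% higher and 24.8% lower. The summed level of the 9 genes was 3757 to 3924 CPM in the positive fractions and 816.5 to 991.3 CPM in the negative fractions. Per mouse, Ttr made up 71.7% to 86.7% of the positive fraction sum.

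Transthyretin, which carries thyroxine and the retinol-binding protein in cerebrospinal fluid and blood, is encoded by Ttr (chromosome 18, 20665250 to 20674326). Its level was 3280, 2695 and 2886 CPM in the positive fractions of mice 290, 293 and 294, and 533.2, 584.6 and 441.4 CPM in their negative fractions. The groups did not overlap, and Ttr was the only member that was highest in mouse 290. Ttr stood between rank 17 and rank 21 of all genes by CPM in these positive fractions and between rank 179 and rank 295 in the negative fractions. The log2 fold change was 2.85 ± 0.17 (SE). It had the highest level per length of the members in the Aldh1l1-NuTRAP positive fraction, at 2491 CPM per kb of exon, followed by Enpp2 at 115.0 CPM per kb.

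Autotaxin, a secreted enzyme that makes lysophosphatidic acid, is encoded by Enpp2 (chromosome 15, 54838898 to 54920146), which is expressed by choroid plexus and also by oligodendrocytes. It measured 387.7, 802.8 and 803.7 CPM in the positive and 296.8, 343.8 and 319.6 CPM in the negative fractions of mice 290, 293 and 294. Mouse 290 stood well below mice 293 and 294 in the positive fraction. Its log2 fold change of 1.40 ± 0.27 (SE) was the smallest of the 9, and positive over negative fraction gave 1.31 in mouse 290 and 2.34 and 2.51 in the others.

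Folr1 (chromosome 7, 101858331 to 101870788) encodes the folate receptor that moves folate across the epithelium. It measured 19.1, 28.1 and 23.5 CPM in the positive and 5.12, 4.97 and 4.95 CPM in the negative fractions, in the same order of mice. The negative fractions were nearly the same in the 3 mice, and the log2 fold change was 2.58 ± 0.20 (SE). Kl (chromosome 5, 150952607 to 150993817) encodes klotho, a co-receptor for FGF23 that is shed into the fluid. It measured 27.9, 79.6 and 69.4 CPM in the positive and 15.0, 21.1 and 18.0 CPM in the negative fractions. The positive fraction of mouse 290 was again the lowest, and the log2 fold change was 2.04 ± 0.37 (SE).

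The genes of ion and water transport moved by different amounts. Slc4a5 (chromosome 6, 83237375 to 83304945), a sodium bicarbonate cotransporter of the ventricle-facing membrane, measured 7.56, 18.0 and 15.9 CPM in the positive and 2.28, 2.59 and 2.54 CPM in the negative fractions. Its log2 fold change of 2.83 ± 0.35 (SE) was second to that of Ttr, and it passed the filter on low counts through the positive fractions alone. Kcnj13 (chromosome 1, 87386284 to 87394729), which encodes the potassium channel Kir7.1, measured 9.77, 14.2 and 15.5 CPM against 2.53, 4.22 and 2.68 CPM, with a log2 fold change of 2.40 ± 0.29 (SE). Clic6 (chromosome 16, 92498147 to 92541241), of the chloride intracellular channel family, measured 32.6, 86.8 and 77.1 CPM against 15.1, 19.1 and 16.0 CPM, with a log2 fold change of 2.31 ± 0.35 (SE). Aqp1 (chromosome 6, 55336299 to 55348555), the water channel of the apical membrane, measured 10.1, 19.1 and 19.99 CPM against 6.83, 7.20 and 5.74 CPM, with a log2 fold change of 1.66 ± 0.28 (SE). For Clic6, Slc4a5 and Aqp1, and also for Kl, Otx2 and Enpp2, the positive fraction of mouse 290 was closer in CPM to the negative fractions than to the other positive fractions. On a log scale this did not hold for Slc4a5.

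Otx2 (chromosome 14, 48658184 to 48662872), a homeodomain factor needed for choroid plexus development, measured 7.32, 13.2 and 12.3 CPM in the positive and 3.47, 3.70 and 5.59 CPM in the negative fractions. All 3 mice showed the higher level in the positive fraction, and the log2 fold change was 1.71 ± 0.31 (SE).

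Mouse 290 was the lowest of the positive fractions for 8 members, and its astrocyte marker sum was also the lowest, at 17385 CPM against 26542 CPM in mouse 293 and 24870 CPM in mouse 294. Its ependymal marker sum was the highest, at 117.9 CPM against 84.2 and 95.8 CPM. Its sum over the other choroid plexus genes described below was also the highest, at 1463 CPM against 1311 CPM in mouse 293 and 1234 CPM in mouse 294. The summed level of the members in mouse 290 was 3782 CPM, against 3757 and 3924 CPM. The library total of mouse 290 was 11910851, against 20999571 and 22308992. Their part in the lower values was not tested.

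Across the 6 groups the Aldh1l1-NuTRAP positive fraction had the highest mean for all 9 genes, and all 9 also lay above the Cx3cr1-NuTRAP positive fraction without overlap (18.4% of 13676 genes did, and 42% lay below). Below it the order differed between genes. Ttr, Folr1, Kcnj13 and Aqp1 ran from Cx3cr1-NuTRAP negative fraction to input to positive fraction, and Clic6, Kl, Slc4a5 and Enpp2 from input to negative fraction to whole tissue. For Otx2 whole tissue came next, at 8.07 ± 2.17 CPM (SD, n = 5). Ttr, Folr1, Kcnj13 and Clic6 in the Aldh1l1-NuTRAP positive fraction did not overlap with the next group in their order, and Kl, Slc4a5, Aqp1, Otx2 and Enpp2 overlapped with it through mouse 290. Of all genes 18.9% lay above the Cx3cr1-NuTRAP negative fraction without overlap (43.3% below) and 21.9% above the input (47.6% below), and nothing is read from the members' count, since these positive fractions chose them. Further down, all neighbouring groups overlapped except for Enpp2, whose Aldh1l1-NuTRAP negative fractions lay below all whole tissues.

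The Aldh1l1-NuTRAP negative fraction was lower than the Cx3cr1-NuTRAP negative fraction for all 9 genes. The log2 differences ranged from -0.44 ± 0.17 (SE) for Aqp1 to -1.38 ± 0.26 for Slc4a5, with -0.998 ± 0.147 for Ttr. Slc4a5 passed the filter on low counts there through the Cx3cr1-NuTRAP negative fractions alone, where it was higher. Ttr, Kcnj13, Slc4a5 and Enpp2 lay below without overlap (5.16% of 13613 genes did, and 2.57% lay above). These negative fractions were among the values that chose the members, so no test is given. In bulk RNA, fewer choroid plexus cells, less of their RNA per cell and its loss to the beads cannot be told apart.

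**Figure D2:**
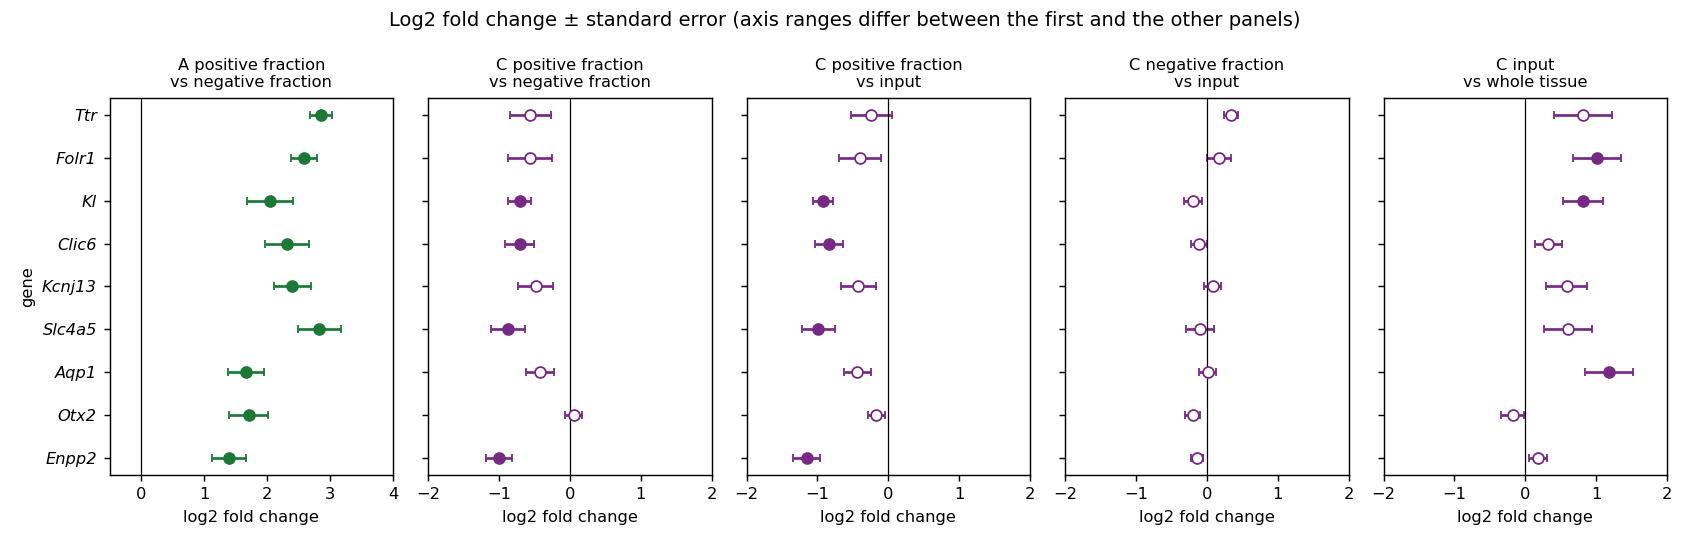
Log2 fold change (points) with its standard error (bars) for the 9 genes in 5 comparisons, A being Aldh1l1-NuTRAP and C Cx3cr1-NuTRAP. In the 4 C panels filled points have an adjusted p under 0.05 and open points do not, while the A panel is a description with no test. All 9 genes lie to the right of 0 in the A panel, and those filled in the C positive fraction panels lie to the left.

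The rule that picked the members did not use the Cx3cr1-NuTRAP libraries, although earlier results of these data were known. In those libraries the microglial pulldown could be tested against the unbound and input RNA. Against the negative fraction, 4 of the 9 genes fell (Enpp2, Slc4a5, Clic6 and Kl) and none rose, with 11.6% of 13776 tested genes called lower and 12.8% higher. Against the input the same 4 members fell and none rose, with 25.6% of 13838 genes called lower and 23.3% higher. The median log2 fold change of the 9 genes was -0.56 against the negative fraction and -0.44 against the input, beside -0.018 and -0.003 for all tested genes. The negative fraction and the input were each compared with the same positive fractions.

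Enpp2 measured 120.0 to 356.9 CPM in the positive fractions (median 259.8, n = 6), 439.5 to 599.2 CPM in the negative fractions (median 522.9) and 473.1 to 666.1 CPM in the inputs (median 578.0). Its positive fractions lay below all negative fractions, as in 5.85% of all genes (7.26% lay above), and below all inputs, as in 15.3% (10% lay above). It fell by 0.99 ± 0.19 on the log2 scale against the negative fraction (edgeR adjusted p = 0.00139) and by 1.15 ± 0.19 against the input (edgeR adjusted p = 0.000288). The oligodendrocyte marker list, whose cells also express Enpp2, moved with it. Of its 10 genes 9 fell in the positive fraction against either, and its sum was 1410 to 3766 CPM in positive fractions against 4891 to 5603 CPM in inputs. Its part in the Enpp2 values was not tested.

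Kl measured 11.6 to 22.9 CPM in the positive fractions (median 18.9), 20.4 to 37.5 CPM in the negative fractions (median 32.4) and 28.7 to 40.6 CPM in the inputs (median 35.7). Positive fractions and inputs did not overlap. It fell by 0.71 ± 0.16 on the log2 scale against the negative fraction (edgeR adjusted p = 0.00629) and by 0.92 ± 0.14 against the input (edgeR adjusted p = 0.000149). Clic6 measured 7.08 to 20.03 CPM in the positive fractions (median 15.0), 18.2 to 30.4 CPM in the negative fractions (median 23.8) and 21.5 to 31.2 CPM in the inputs (median 26.0). Its positive fractions also lay below all inputs. It fell by 0.71 ± 0.20 (edgeR adjusted p = 0.0213) and by 0.84 ± 0.19 (edgeR adjusted p = 0.00285) against negative fraction and input.

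Slc4a5 measured 1.98 to 5.56 CPM in the positive fractions (median 3.18), 3.47 to 8.68 CPM in the negative fractions (median 6.81) and 5.23 to 11.2 CPM in the inputs (median 6.47). The positive fractions overlapped with both. It fell by 0.88 ± 0.24 (edgeR adjusted p = 0.0167) and by 0.99 ± 0.23 (edgeR adjusted p = 0.00320). Against the negative fraction the calls of Slc4a5 and Clic6 did not hold without mouse 192 (edgeR adjusted p = 0.0565 and 0.0641) or without mouse 277 (edgeR adjusted p = 0.0765 and 0.0709), which left 2 members called. Slc4a5 was not called without mouse 194 either (edgeR adjusted p = 0.0527).

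The other 5 members were not called against either. Ttr measured 193.7 to 982.7 CPM in the positive fractions (median 829.2), 855.6 to 1340 CPM in the negative fractions (median 1029) and 757.9 to 932.6 CPM in the inputs (median 860.0). Mice 194 (193.7 CPM), 155 (471.9 CPM) and 192 (796.6 CPM) lay below all negative fractions, and mice 194 and 155 also below all inputs. Mice 209, 210 and 277 lay within the range of the negative fractions. Its log2 fold changes were -0.56 ± 0.29 (edgeR adjusted p = 0.170) and -0.24 ± 0.29 (edgeR adjusted p = 0.506). Folr1 (1.31 to 7.77 CPM), Kcnj13 (1.74 to 5.72 CPM) and Aqp1 (3.71 to 9.30 CPM) had log2 fold changes between -0.41 and -0.56 in both comparisons. With the mouse as a block Folr1 (edgeR adjusted p = 0.0478) and Aqp1 (edgeR adjusted p = 0.0498) were called lower than in the negative fraction, beside 7.98% of all genes lower and 9.28% higher. Otx2 measured 5.17 to 6.99 CPM in the positive fractions and 5.20 to 7.06 CPM in the negative fractions, with a log2 fold change of 0.05 ± 0.12 (edgeR adjusted p = 0.795).

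In the positive fraction mouse 194 was the lowest for 8 of the 9 genes, all but Otx2, and had a summed level of 348.1 CPM, while mouse 209 was the highest for 6, with a sum of 1398 CPM. The microglia marker sum was highest in mouse 194, at 6909 CPM, and lowest in mouse 209, at 2827 CPM. The oligodendrocyte sum was also lowest in mouse 194, at 1410 CPM, against 3050 to 3766 CPM in the other mice. The part of these marker levels in the members' values was not tested.

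**Figure D3:**
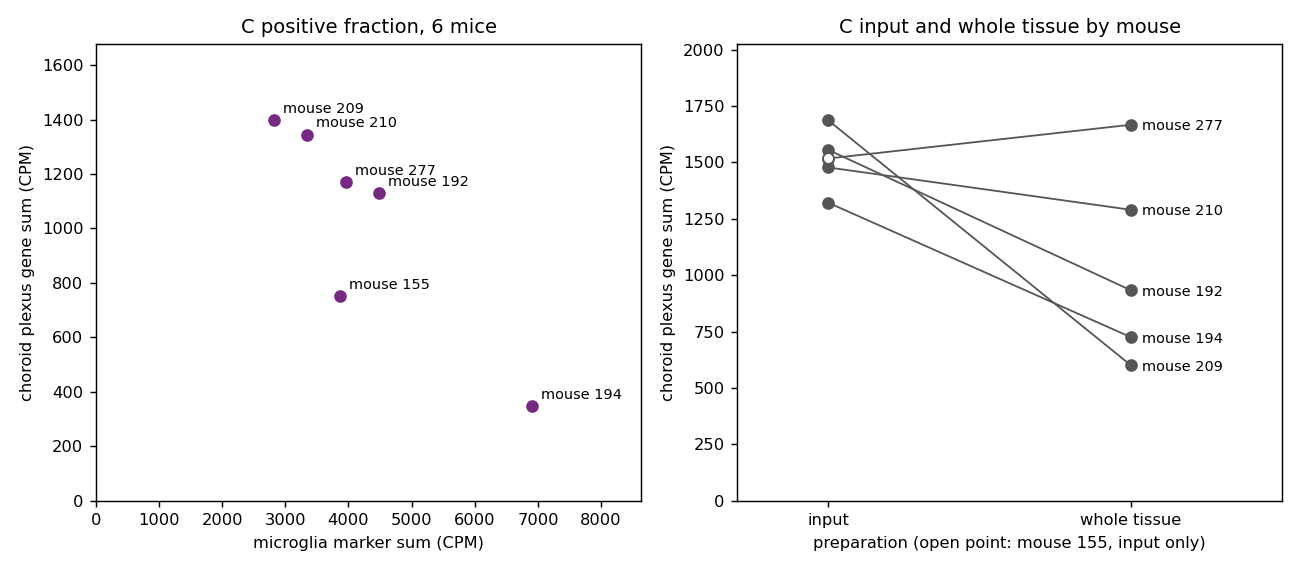
Left, summed CPM of the 9 choroid plexus genes against summed CPM of 10 microglia markers in the 6 Cx3cr1-NuTRAP positive fractions. Right, the same choroid plexus sum in input and whole tissue, with lines joining the preparations of a mouse. Mouse 194 has the highest microglia sum and the lowest choroid plexus sum on the left, and the whole tissue points on the right spread from 600.1 to 1667 CPM, against 1322 to 1687 CPM for the inputs.

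Between negative fraction and input of the Cx3cr1-NuTRAP mice no member was called by edgeR, with 1.41% of 13748 genes called higher and 4.7% lower. The groups overlapped for all 9 members, where 1.07% of genes lay above without overlap and 2.71% below. Of the 9 genes 1 (Ttr) had an unadjusted p under 0.05. Ttr was higher in the negative fraction in 6 of 6 mice, by a ratio of 1.12 to 1.44, with a log2 fold change of 0.34 ± 0.10 (edgeR adjusted p = 0.0515). DESeq2 called it (adjusted p = 0.0160), as did edgeR without mouse 155 (adjusted p = 0.0130). With the mouse as a block 17.7% of all genes were called higher and 19.5% lower, and 1 member higher and 2 lower, close to those shares. Ttr rose by 0.33 on the log2 scale (edgeR adjusted p = 0.000416), Kl fell by 0.21 (edgeR adjusted p = 0.0119) and Enpp2 fell by 0.14 (edgeR adjusted p = 0.00241). Kl and Enpp2 were lower in the negative fraction in 6 of 6 mice.

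Between input and whole tissue Aqp1, Folr1 and Kl were called higher in input, Aqp1 and Folr1 after passing the filter on low counts through the inputs alone, with 15.7% of 13608 genes called higher and 14.6% lower, and the other 6 genes were not called. The groups overlapped for all 9, where 8.34% of genes lay above without overlap and 5.61% below. The whole tissue of mouse 277 was the highest for all 9 genes and that of mouse 209 the lowest for 7. Folr1, Kcnj13, Slc4a5 and Aqp1 passed the filter on low counts through the inputs alone, since the whole tissue library of mouse 210 was the shallowest, and with no filter on low counts Aqp1 was called and Folr1 and Kl were not (edgeR adjusted p = 0.0672 and 0.0877). The calls of Folr1 and Kl each held under 6 of 11 alternatives.

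Aqp1 measured 2.75, 3.44, 1.28, 4.69 and 8.48 CPM in the whole tissue of mice 192, 194, 209, 210 and 277 and 7.79 to 10.6 CPM in the inputs (median 9.13, n = 6). The whole tissue of 277 overlapped with the inputs and the other 4 lay below them. Its log2 fold change was 1.18 ± 0.34 (edgeR adjusted p = 0.0175), with the filter on low counts passed through the inputs alone. Folr1 measured 3.53, 1.88, 1.28, 4.46 and 7.45 CPM in the whole tissues and 5.81 to 8.49 CPM in the inputs (median 7.35), with a log2 fold change of 1.01 ± 0.34. Kl measured 17.7, 14.1, 9.33, 24.2 and 35.8 CPM in the whole tissues and 28.7 to 40.6 CPM in the inputs, with a log2 fold change of 0.81 ± 0.28 (edgeR adjusted p = 0.0458). No member was called without mouse 192 or without mouse 194, 1 (Aqp1) without mouse 209 or without mouse 210, and 6 without mouse 277 (11.4% of all genes were then higher and 10.8% lower). Among these 6 were Folr1, Kcnj13, Slc4a5 and Aqp1, which with all libraries passed the filter through the inputs alone.

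Ttr measured 349.8, 225.1, 172.3, 763.7 and 892.1 CPM in the whole tissues, against 757.9 to 932.6 CPM in the inputs. Mice 210 and 277 lay within the input range and the others below it, and Ttr was not called (log2 fold change 0.82 ± 0.41, edgeR adjusted p = 0.160). Otx2 ran from 6.04 to 11.4 CPM in whole tissue and was not called (-0.18 ± 0.16, edgeR adjusted p = 0.427). The ependymal markers, from the cells that line the ventricle wall, were also spread in whole tissue, at 61.3 to 106.1 CPM in sum with the highest value in mouse 277, but they were lower in input (34.1 to 51.7 CPM), with 5 of 7 tested markers called lower. Also lower in input were 9 of 10 endothelial markers (163.6 to 184.1 CPM in sum against 256.5 to 456.7 CPM), 9 of 10 oligodendrocyte markers (4891 to 5603 against 6758 to 9154 CPM), 6 of 7 tested pericyte and smooth muscle markers and 5 of 10 astrocyte markers. Higher in input were 4 of 9 meningeal fibroblast markers (2 with the mouse as a block), with a sum of 156.7 to 203.5 against 107.4 to 164.2 CPM. Of 10 neuron markers 5 were higher and 3 lower, and no microglia, border-associated macrophage or erythrocyte marker was called. Their part in the members' values was not tested.

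A list of 36 other genes of the choroid plexus epithelium, chosen with the results of these data known and so no independent support, is described by its counts. In the Aldh1l1-NuTRAP mice 26 of 35 tested genes were higher in the positive fraction and 2 lower, beside 26.8% and 24.8% of all genes, and the median log2 fold change was 1.59. Of the 26 genes, 10 passed the filter on low counts through the positive fractions alone, which favours genes that are high there, and 16 through both fractions. The largest were Cox8b, Mfrp, Msx1 and Rdh5. Cox8b measured 8.11 ± 8.59 CPM in the positive and 0.760 ± 0.569 CPM in the negative fractions (SD, n = 3), with a spread above its mean, and passed the filter through the positive fractions alone. Mfrp, a frizzled-related membrane protein, rose from 11.5 to 110.5 CPM in the mean. Msx1, a homeodomain factor, rose from 4.47 to 32.2 CPM, and Rdh5, a retinol dehydrogenase, from 5.17 to 33.3 CPM. The genes of the list that fell were Slc4a10 (-1.68 ± 0.19), a bicarbonate transporter that neurons also express, and the serotonin receptor gene Htr2c (-0.80 ± 0.25).

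In the Cx3cr1-NuTRAP positive fraction 10 of 33 tested genes of that list were lower than in the negative fraction and 1 higher (Lmx1a, which passed the filter through the positive fractions alone), and 14 of 32 were lower than in the input and none higher. With the mouse as a block 1 of the list was higher than in the input. Without the block, 11.6% of all genes were lower and 12.8% higher than in the negative fraction, and 25.6% lower and 23.3% higher than in the input. Slc13a4, a sulfate transporter, fell by 1.14 ± 0.12 and by 1.19 ± 0.11 on the log2 scale, the largest falls of the list in both comparisons. Slc2a12, F5 and Lbp followed it against the input (-1.14 ± 0.22, -1.12 ± 0.24 and -0.90 ± 0.21), and Slc2a12, Lbp and Kcne2 against the negative fraction (-0.97 ± 0.21, -0.85 ± 0.22 and -0.81 ± 0.21). Between negative fraction and input 1 gene of the list was higher (Msx1, 0.44 ± 0.12) and 2 lower (Slc4a10 and Htr2c), beside 1.41% and 4.7% of all genes. These calls held under 4, 7 and 5 of 12 alternatives. With the mouse as a block 5 of the list were higher and 4 lower, beside 17.7% and 19.5% of all genes. In input against whole tissue 7 of 31 were higher, led by the carbonic anhydrase Car12 (1.39 ± 0.28), Krt18 (0.89 ± 0.28), Cldn2 (0.86 ± 0.29) and Abca4 (0.83 ± 0.21), and 3 were lower (Htr2c, Prlr and Cab39l, of which 1 with the mouse as a block). Of all genes 15.7% were higher and 14.6% lower there. Krt18 and Cldn2 were each called under 6 of 10 alternatives and Cab39l under 2 of 11, and Krt18, Cldn2 and Abca4 passed the filter through the inputs alone.

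**Figure D4:**
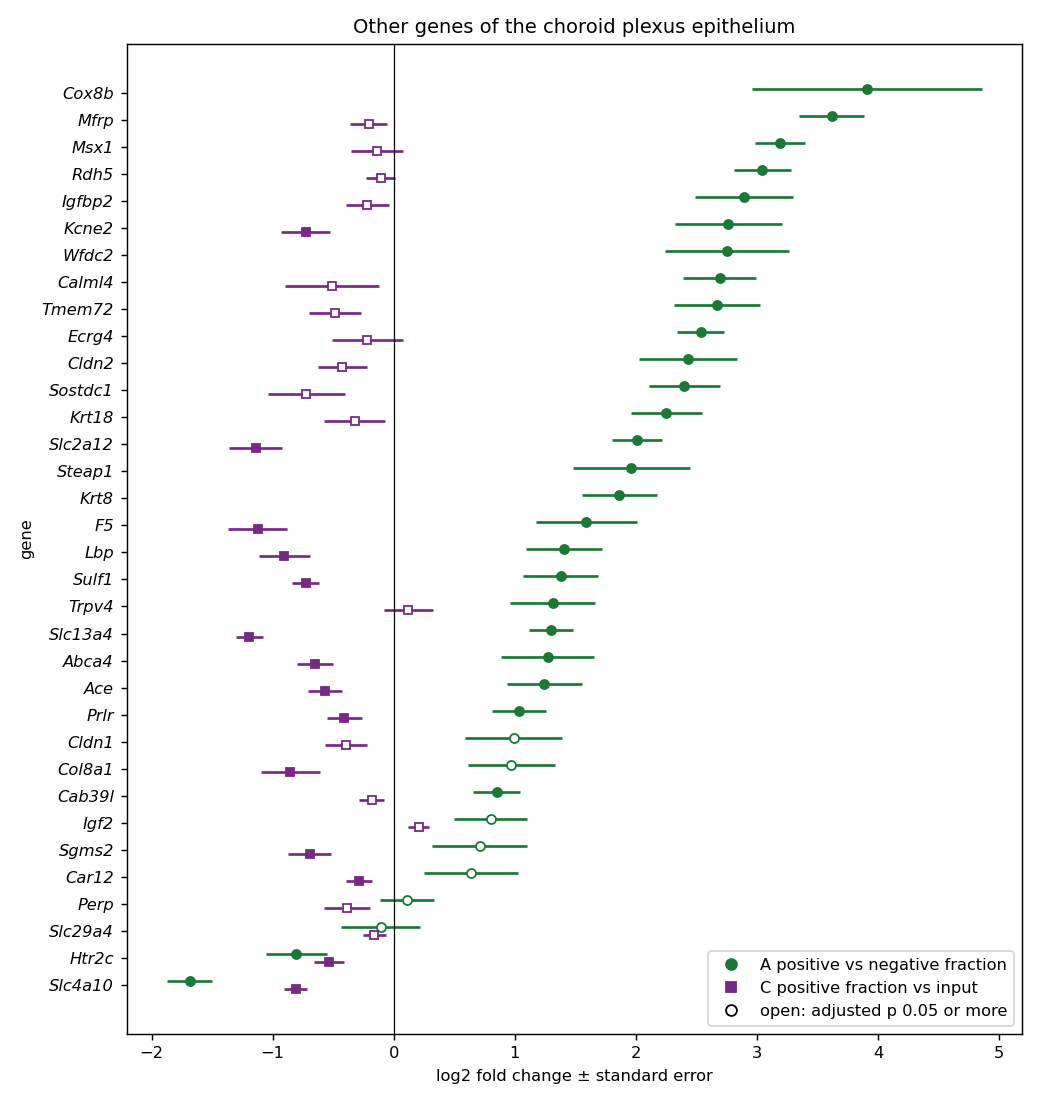
Log2 fold change with standard error for 34 of the 35 tested genes of the other choroid plexus list, in the Aldh1l1-NuTRAP positive against negative fraction (circles) and the Cx3cr1-NuTRAP positive fraction against input (squares), ordered by the former. Open symbols have an adjusted p of 0.05 or more. Of the circles 25 are filled and right of 0 and 2 are filled and left of it, and all 14 filled squares are left of 0.

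The partners of the members were taken from lists by role, also chosen with the results known. Of all tested genes 26.8% were higher and 24.8% lower in the Aldh1l1-NuTRAP positive fraction. In the Cx3cr1-NuTRAP positive fraction 12.8% were higher and 11.6% lower than in the negative fraction, and 23.3% and 25.6% than in the input. Negative fraction against input had 1.41% and 4.7% (17.7% and 19.5% with the mouse as a block), and input against whole tissue 15.7% and 14.6%. The list counts below stand beside these shares. Of 20 transporters and enzymes of cerebrospinal fluid secretion, 8 of 18 tested were higher and 5 lower in the Aldh1l1-NuTRAP positive fraction. Those that rose most were Fxyd1 (4.32 ± 0.36), a modulator of the sodium pump that astrocytes also express, Kcne2 (2.76 ± 0.44), Slc12a4 (2.48 ± 0.20) and Car2 (1.65 ± 0.16). Atp1b1, a subunit gene of the sodium pump (-1.35 ± 0.16), fell together with the potassium channel gene Kcna1 (-1.75 ± 0.25) and Slc4a10. In the microglial pulldown none rose, 9 of 19 fell against the negative fraction and 12 of 19 against the input, led by Kcna3 (-1.12 ± 0.25), Slc4a10 (-0.81 ± 0.09) and Slc12a2 (-0.73 ± 0.09), which encodes the cotransporter NKCC1. In input against whole tissue 2 of 19 were higher, among them Car12, and 5 lower, and in negative fraction against input 2 were lower (Kcna3, called under 6 of 11 alternatives, and Slc4a10) and none higher (5 and 3 with the mouse as a block).

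Of 11 genes of thyroid hormone and retinol handling, the cargo of transthyretin, 6 rose and 2 fell in the Aldh1l1-NuTRAP positive fraction (4 and 3 with total counts alone). Dio2, the deiodinase that activates thyroxine in astrocytes, rose by 3.12 ± 0.24 on the log2 scale, Rdh5 by 3.04 ± 0.23 and the thyroxine transporter gene Slco1c1 by 2.20 ± 0.26. Slc16a10 (-2.17 ± 0.25), which passed the filter through the negative fractions alone, and Rbp4 (-1.33 ± 0.32) fell. Among the Cx3cr1-NuTRAP positive fractions 4 of 11 fell against the input, among them Stra6, Thrb and Dio2, and 2 against the negative fraction, among them Dio2 (called under 6 of 12 alternatives, and 1 gene with the mouse as a block), and none rose. Crym was higher in input than in whole tissue by 1.28 ± 0.30, with Stra6, which passed the filter through the inputs alone, also higher and Slco1c1 lower. Crym alone was higher in negative fraction than in input (0.25 ± 0.06, called under 5 of 12 alternatives, and 3 genes with the mouse as a block).

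Folate handling had 8 genes, of which 7 were tested in the Aldh1l1-NuTRAP line. There 4 rose, led by the proton-coupled folate transporter Slc46a1 (2.12 ± 0.17) and the hydrolase Ggh (1.92 ± 0.26), and 1 fell. Folr2, a folate receptor of macrophages, rose in the Cx3cr1-NuTRAP positive fraction, from 0.510 CPM in the input to 6.28 CPM, by 3.61 ± 0.28 on the log2 scale, and passed the filter on low counts through the positive fraction alone, while Folr1 was not called. In all 3 of 8 rose (Folr2, Fpgs and Slc46a1) and 1 fell (Slc19a1) against the input, and 2 of 8 rose (Folr2 and Slc46a1) against the negative fraction. Between input and whole tissue 1 of 7 was called, and none between negative fraction and input (1 lower with the mouse as a block).

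Of the 8 klotho partners and sheddases 5 were tested. The FGF receptors Fgfr3 (3.53 ± 0.18), Fgfr1 (1.82 ± 0.17) and Fgfr2 (1.33 ± 0.20) and the protease Adam17 (0.89 ± 0.15) rose in the Aldh1l1-NuTRAP positive fraction and none fell (1 with the mouse as a block). Fgfr3 is also on the astrocyte marker list. The same 3 receptors fell and Adam17 rose in the Cx3cr1-NuTRAP positive fraction, by 0.94 ± 0.16 against the negative fraction and 0.73 ± 0.15 against the input, and Adam10 fell against the input (-0.34 ± 0.06). Fgfr3 alone was lower in input than in whole tissue (-0.45 ± 0.06), and Adam10 alone lower in negative fraction than in input (-0.22 ± 0.05, called under 6 of 12 alternatives, and 4 genes with the mouse as a block).

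Of 9 receptors and phosphatases of lysophosphatidic acid, the product of autotaxin, 6 were tested in the Aldh1l1-NuTRAP line. The phosphatase gene Plpp3 (2.96 ± 0.21) and the receptor gene Lpar4 (2.26 ± 0.30) rose and Lpar1 (-0.73 ± 0.25, called under 6 of 9 alternatives) fell. In the Cx3cr1-NuTRAP positive fraction Lpar5 rose by 2.53 ± 0.31 and Lpar6 by 0.45 ± 0.18 against the input (1 gene with the mouse as a block), and Lpar1, Plpp3 and Lpar4 fell, of which Lpar4 passed the filter through the inputs alone. Against the negative fraction Lpar5 and Lpar6 rose (1 with the mouse as a block) and Lpar1 and Plpp3 fell. Lpar5 passed the filter through the positive fraction alone in both comparisons, and Lpar6 was called under 4 of 11 alternatives in each. In input 4 of 6 were lower than in whole tissue (Lpar4, Plpp2, Plpp1 and Lpar1), and none was called between negative fraction and input (1 in each direction with the mouse as a block).

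Of 11 measured factors of the dorsal midline and of multiciliated cells, 7 were tested in the Aldh1l1-NuTRAP line. There 5 rose and none fell, namely Msx2 (3.63 ± 0.49), Msx1 (3.19 ± 0.21), E2f5 (2.62 ± 0.17), Otx1 (2.20 ± 0.23) and Foxj1 (1.72 ± 0.30), of which Msx2 passed the filter through the positive fractions alone. In the Cx3cr1-NuTRAP positive fraction Lmx1a was higher than in the negative fraction (0.83 ± 0.22), but it passed the filter through the positive fractions alone. Rfx3 fell there against both negative fraction and input (-0.50 ± 0.08 and -0.72 ± 0.09). Msx1 was higher in negative fraction than in input, and Rfx3 higher and Foxj1 lower in input than in whole tissue. With the mouse as a block 2 genes of this list fell in each of positive against negative fraction and negative fraction against input, and 2 were higher in input than in whole tissue.

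Markers of other cells moved beside the members in the Aldh1l1-NuTRAP positive fraction. All 10 astrocyte markers rose, and their sum was 17385 to 26542 CPM against 3299 to 4344 CPM in the negative fraction. Of 11 ependymal markers 8 were tested, and 6 rose (5 that passed the filter through both fractions and Cfap126 through the positive fractions alone), with Foxj1 at 37.8 ± 3.09 against 14.5 ± 6.23 CPM (SD, n = 3). Ccdc153, the second defining marker, was not called (-0.11 on the log2 scale), and the ependymal sum was 84.2 to 117.9 CPM against 40.02 to 54.7 CPM. Of 9 meningeal fibroblast markers 6 rose (1 with total counts alone) and 3 fell, the latter being Dcn, Lum (which passed through the negative fractions alone) and Col1a1, and the sum was 210.5 to 254.5 CPM against 126.7 to 151.0 CPM. The first 2 markers of each of these lists were above 0 in every library of both fractions. Their part in the members' values was not tested.

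The remaining lists did not rise as a group in that fraction. Of 10 endothelial markers none was called (2 lower with the mouse as a block and 3 lower with total counts alone), and of 7 tested pericyte and smooth muscle markers 2 rose and 2 fell (4 fell with the mouse as a block). Of these Myh11 passed the filter only through the positive fractions, where it was higher, and Abcc9 only through the negative fractions, where it was higher. Oligodendrocyte (9 of 10), microglia (10 of 10), neuron (10 of 10) and erythrocyte (4 of 4) markers fell, of which 2 microglia markers (Aif1 and Siglech) and the erythrocyte marker Alas2 passed through the negative fractions alone. Border-associated macrophage markers had 1 of 3 tested lower (3 with the mouse as a block), all 3 admitted by the negative fractions alone, and their sum was 2.69 to 4.37 CPM against 11.0 to 15.2 CPM.

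In the Cx3cr1-NuTRAP positive fraction against the input, all 10 microglia markers rose, as did 4 of 10 endothelial markers. Of the 7 border-associated macrophage markers, 3 passed the filter through both groups and rose, and the other 4 (Lyve1, Pf4, Ms4a7 and Cbr2) were higher but passed through the positive fractions alone. Markers of other cell types fell there as well. Besides the oligodendrocyte markers, 7 of 10 astrocyte, 8 of 9 meningeal, 3 of 10 neuron, 3 of 7 pericyte and smooth muscle and 1 of 7 ependymal markers fell, with 1 pericyte and smooth muscle marker higher and no erythrocyte marker called (1 lower with the mouse as a block).

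The genes most like the members were sought among 13940 genes by the Pearson correlation of their log2 CPM with the mean of the 9 members over the 23 Cx3cr1-NuTRAP libraries, which share mice and vary in microglial content. The closest were Sostdc1 (r = 0.919) and Kcne2 (r = 0.918), both on the choroid plexus list, followed by Dact2, Spry2, Chn1, Ovol2, Acvr1c, F5, Nov and Tbr1 (r = 0.879 to 0.839). Of these 10 genes 3 were on the choroid plexus list, and in the Aldh1l1-NuTRAP positive fraction 4 were higher and 6 lower, among the latter Tbr1 (-2.22), a factor of cortical neurons, and Nov (-2.39). Among the members themselves the correlation of each with the mean of the other 8 was 0.809 to 0.938 for Ttr, Folr1, Clic6, Kl, Kcnj13, Slc4a5 and Aqp1, 0.641 for Enpp2 and -0.062 for Otx2. Over all 29 libraries, which include those that chose the members, the 10 closest genes were Kcne2 (r = 0.955), Sostdc1, Cldn2, Lhfp, Ecrg4 (listed as 1500015O10Rik), Msx1, Bmp6, Prelp, Ccdc135 and Slc2a10, of which 5 were on the choroid plexus list and all 10 were higher in the Aldh1l1-NuTRAP positive fraction. Otx2 then correlated at 0.612 with the other members.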

How the data were processed

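TRAP-RNAseq values of 29 libraries were analysed. Per the paper's methods, the authors trimmed strand-specific paired-end reads and mapped them with Strand NGS to mm10, and the file header names a RefSeq gene set. The deposited raw values carry no normalization. Of the nonzero ones 81.4% are not whole (tolerance 0.001), and how these arose is not given in the sources used here, so the deposited values were taken to be expected counts and rounded for the tests. The deposited log2 values, normalized by the authors with DESeq, were not used. Of 36172 rows 14057 are 0 throughout and 454 share a symbol. Of 194 list entries (184 distinct genes), 2 found no row (Mcidas and Hbb-bs).

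A gene was tested if each library of one or the other compared group held over 20 counts. The test was edgeR 4.0.16 (R 4.3.3, TMM, robust quasi-likelihood, two-sided, Benjamini-Hochberg adjusted p under 0.05) on the compared groups alone, and it was tested on simulated data. The SE of a log2 fold change was back-computed as its absolute value over the square root of the F statistic of that test. Alternatives were DESeq2 1.42.0, total counts, no filter, over 100 counts, all 6 groups in one fit, the mouse as a block, each mouse left out, TMM-scaled levels, and likeness over 29 libraries. Libraries with one number came from one mouse, per the labels. Their deviations from the group means correlated at 0.484 to 0.692 in the Aldh1l1-NuTRAP line. In the Cx3cr1-NuTRAP line the correlations were 0.058 to 0.646 for negative fraction and input, -0.307 to 0.248 for positive and negative fraction, -0.265 to 0.189 for positive fraction and input, and -0.200 to 0.076 for input and whole tissue, where the block leaves out mouse 155.

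The members and all lists were chosen with earlier results of these data known. Named are the members, up to 4 genes per direction with the largest change past the threshold from each choroid plexus or partner list and comparison, the 10 genes most like the members, the first 2 markers of a cell type list, and Aldh1l1 and Cx3cr1. Some list genes that the rule names are not reported here. Other list genes were named after their values were seen. Likeness used TMM-scaled log2 CPM with a prior count of 2. Gene positions (mm10) are those of the deposited table, and exon lengths and window overlaps are from GENCODE M21. Scripts ran in Python 3.11.15 with numpy 2.4.6, pandas 2.3.3 and, for plots, matplotlib 3.10.9.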

Additional observations from a re-analysis of the deposited data

Results flagged for a closer look

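Slc4a5 in the Cx3cr1-NuTRAP input of mouse 209, at 11.2 CPM, stood apart from the other 5 inputs (5.23 to 6.66 CPM) by Dixon's gap ratio of 0.761. It was the only one of 36 sets of 5 or 6 libraries (a member in a group) to do so, where chance gives about 1 in 20.

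For 7 members the positive over negative ratio was above 1 in all 3 Aldh1l1-NuTRAP mice and below 1 in all 6 Cx3cr1-NuTRAP mice. Of all 13776 genes tested in the Cx3cr1-NuTRAP line 15.3% were lower and 10.8% higher in every mouse. The direction in the Aldh1l1-NuTRAP mice is the one that picked the genes, and the difference between the lines was not tested. The median ratio was 6.15 in Aldh1l1-NuTRAP against 0.822 in Cx3cr1-NuTRAP mice for Ttr, 4.76 against 0.734 for Folr1, 4.55 against 0.663 for Clic6 and 3.77 against 0.617 for Kl. It was 6.28 against 0.535 for Slc4a5, 2.65 against 0.763 for Aqp1 and 2.34 against 0.522 for Enpp2. Kcnj13 and Otx2 were above 1 in 1 and in 3 of the 6 Cx3cr1-NuTRAP mice.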

How the results depend on the processing

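All 9 members were highest in the Aldh1l1-NuTRAP positive fraction under both scalings. In the Aldh1l1-NuTRAP contrast total counts alone lowered the log2 fold changes of all 9, with a median of 1.97 instead of 2.31 and values from 1.05 (Enpp2) to 2.51 (Ttr), among them Folr1 (2.24). In the Cx3cr1-NuTRAP line 384 of 418 kept direction and side of the threshold, 17 were no longer called, 11 were newly called and 6 turned. The latter were Otx2 against the negative fraction (-0.029 to 0.1077 with one mouse left out, negative without mouse 194), and, in negative fraction against input, Aqp1 (-0.0072 with all 6 groups in one fit, -0.0444 to 0.0841 with one mouse left out, with -0.0105 without mouse 192, -0.0444 without 210 and -0.0065 without 277) and Slc4a5 (-0.2016 to 0.0616, positive without mouse 209). None of these was called. Of 1174 alternative fold changes of called list genes 136 were no longer called and none turned. The replicate block changed no call of a member other than those given with the results.

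With over 100 counts, which tests fewer genes, 14 other choroid plexus genes instead of 26 were higher in the Aldh1l1-NuTRAP positive fraction, and 6 instead of 10 were lower in the Cx3cr1-NuTRAP positive than negative fraction (16 with DESeq2). In negative fraction against input, 0 members were called with edgeR, 1 with DESeq2 and 3 with the replicate block. All genes lower there numbered 646, against 1287 with DESeq2, 228 with no filter, 59 with all 6 groups in one fit and 2684 with the replicate block. Other choroid plexus genes lower there numbered 2, against 1 with no filter, 1 with all 6 groups and 4 with the replicate block. In input against whole tissue 1 member instead of 3 was called with no filter, and 1167 genes instead of 2130 were higher with all 6 groups in one fit. Among the 10 most alike genes 5 instead of 3 were on the choroid plexus list over all 29 libraries. The cause of these changes was not tested.

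With one mouse left out, which also means fewer samples, the Aldh1l1-NuTRAP contrast had 1977 (without 293) to 4887 (without 290) genes higher, and 17 (without 294) to 31 other choroid plexus genes. Cx3cr1-NuTRAP positive against negative fraction had 2 (without 192 or 277) to 4 members lower, 570 (without 192) to 2183 genes lower and 6 (without 192) to 11 other choroid plexus genes lower. Negative fraction against input had 0 to 1 members called, 0 to 2041 genes lower and 0 to 3 other choroid plexus genes lower, with the top of each range without mouse 155 and 0 genes lower without any other mouse. Input against whole tissue had 0 (without 192 or 194) to 6 (without 277) members higher, 1322 (without 209) to 2697 genes higher and 5 to 12 (without 277) other choroid plexus genes higher. Folr1, Kcnj13, Slc4a5 and Aqp1 had 18 to 20 counts in the shallowest whole tissue library.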
